A study of Arabidopsis thaliana with 3 samples.

Results

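The 8 *Arabidopsis* genes described here encode the enzymes that make galactinol and raffinose, together with their close relatives that act on raffinose. They were chosen by locus identifier and not by a threshold on a value, but with earlier results of these data known. They are 8 of the 33602 genes in the deposited table: the galactinol synthases *AtGolS1* (AT2G47180), *AtGolS2* (AT1G56600), *AtGolS3* (AT1G09350) and *AtGolS4* (AT1G60470), the raffinose synthase *RS5* (AT5G40390), the stachyose synthase *STS* (AT4G01970), and the raffinose synthase family genes *DIN10* (AT5G20250) and *SIP2* (AT3G57520). RNA came from the aerial parts of plants that had not been stressed, 4 weeks old, with 1 library for each of 3 genotypes and 20 plants pooled in each. The tested genotypes were the overexpression (OE) lines #3 and #6, which carry the tomato heat stress transcription factor gene *SlHsfA3* behind the constitutive 35S promoter of cauliflower mosaic virus in the Col-0 background, and the remaining library was untransformed Col-0. The lines are independent transformants, so the spread between their libraries mixes differences between insertions with differences between pools, and the lone Col-0 library has no replicate of its own. *SlHsfA3* itself is a tomato gene and was not measured in the table of *Arabidopsis* genes, so the labels were not checked by its level.

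Galactinol synthase joins galactose from UDP-galactose to *myo*-inositol, which is the entry step of the raffinose family of oligosaccharides. Raffinose synthase then passes the galactose of galactinol on to sucrose and releases the inositol, stachyose synthase adds a further galactose to raffinose, and alpha-galactosidases take these sugars apart again. Galactinol and raffinose accumulate in *Arabidopsis* leaves during heat, cold and drought and are known as osmoprotectants and scavengers of hydroxyl radicals.

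The table held 11556077 reads in genes for line #3, 10786332 for line #6 and 9968154 for Col-0. Nuclear ribosomal RNA took 15.9%, 8.82% and 12.9% of these reads and genes of the organelle genomes 19.4%, 14.3% and 16.1%, in the same order. All 6 green leaf markers had reads, with summed levels of 23699, 23947 and 24867 CPM (reads per 1000000, scaled with the TMM factors of edgeR) in line #3, line #6 and Col-0, whereas 6 of 8 seed storage and oil body genes had 0 reads in every library. The 7 anther and pollen markers summed to 96.4, 2.23 and 24.0 CPM, a sum that was high in line #3 and low in line #6. *GRP17* alone gave 46.3 CPM of the sum in line #3. *MS2* was below Col-0 in both lines, with 6 and 4 reads in lines #3 and #6, against 22 in Col-0. The part of these markers in the differences between lines given below was not tested. In RNA from whole shoots fewer cells of a type and less RNA per cell cannot be told apart.

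*AtGolS1* was the gene of the pathway that rose in the OE lines. It had 2118 reads in line #3 and 2556 in line #6, against 565 in Col-0. Per length of the gene model this was 135 and 175 RPKM (reads per kilobase of gene model and per 1000000 reads of the table, computed from the deposited reads) in lines #3 and #6, against 41.8 in Col-0. Both lines stood well above Col-0 and differed little from each other. The ratio to Col-0 was 3.23 in line #3 (95% interval 2.95 to 3.55) and 4.18 in line #6 (3.82 to 4.59) on the scale of total reads, and 3.36 (3.06 to 3.69) in line #3 after TMM scaling, with an interval of 3.47 to 4.17 in line #6. These intervals, like all intervals of ratios below, are exact binomial intervals that cover counting error only, and both ratios share the single Col-0 library. In the fit of both lines against Col-0, *AtGolS1* averaged 207 ± 18.1 CPM in the OE lines (SD, n = 2) and 57.8 CPM in Col-0, with 1.84 (SE 0.21) as the log2 fold change and an adjusted p of 4.05e-04 (edgeR's quasi-likelihood test, Benjamini-Hochberg over 18802 genes). At this threshold of 0.05, 0.229% of all tested genes were called higher and 0.197% lower, 43 and 37 genes. Of the 8 genes 6 had the 10 reads in at least 1 library that the test required and 1 of these, *AtGolS1*, was called higher and 0 lower; *DIN10* was the other member with an unadjusted p under 0.05, on the lower side. *AtGolS1* was also the member with a ratio above 2 in both lines on the total-read scale, as 1.56% of all tested genes were. Among the 43 genes called higher, *AtGolS1* ranked 4 by its mean level in the OE lines and 24 by its log2 fold change.

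*AtGolS1* lies on the minus strand of chromosome 2 at chr2:19368798-19370478 in TAIR10.1, with 4 exons and a protein of 344 residues. Its 3′ end overlaps the small GTPase gene AT2G47170 on the opposite strand by 43 bases, and no step that marks the strand is named for these libraries. AT2G47170 had 1668 and 1763 reads in lines #3 and #6, against 1436 in Col-0, and a log2 fold change of 0.05 (SE 0.19). *AtGolS4* overlaps AT1G60460 on the opposite strand by 33 bases (4 and 0 reads in lines #3 and #6, against 3 in Col-0), and *DIN10* overlaps AT5G20260 by 82 bases (2 and 1 reads, against 0). Heat stress factors bind as trimers to inverted repeats of the unit GAA, the heat shock element. Between 500 bases before and 50 bases after the annotated gene start, *AtGolS1* was the member that held the element of 3 alternating units (GAA, any 2 bases, TTC, any 2 bases, GAA), searched on both strands, and its first base lay 100 bases before the start. The window is shown because this element was not found in the windows of the 7 relatives. It was read from the gene's own strand at chr2:19370558-19370586 of TAIR10.1, with the element in capitals.
*AtGolS1* element: gtcccactTTCCAGAACTTTCacggtttc
The same element was in 253 of the 27443 promoters of protein-coding genes, or 0.922%. A match of letters is a description and not a measured binding site.

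*AtGolS2*, a paralog known for induction by drought and salt, stood below Col-0 in line #3 and above it in line #6. The paper places the main role of *AtGolS1* in tolerance of drought and salt as well. It had 430 reads in line #3 and 806 in line #6, against 555 in Col-0, or 26.7 and 53.5 RPKM against 39.9. Line #3 was the lowest of the 3 libraries and line #6 the highest. After TMM scaling the ratio to Col-0 was 0.694 (0.611 to 0.789) in line #3 and 1.22 (1.09 to 1.36) in line #6, and the intervals lay on opposite sides of 1 on the total-read scale as well, at ratios of 0.668 and 1.34. Of all tested genes, 1.44% had intervals on opposite sides of 1 in this way. Line #6 over line #3 was 1.76 (1.56 to 1.98). Over both lines the mean was 54.3 ± 21.1 CPM (SD, n = 2) in the OE lines and 56.7 CPM in Col-0, and the log2 fold change was -0.06 (SE 0.25, adjusted p = 0.990 by edgeR's quasi-likelihood test) under TMM and 0.0065 when scaled to total reads. The mean of the lines thus hid a difference between them that was larger than counting error.

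**Figure D1:**
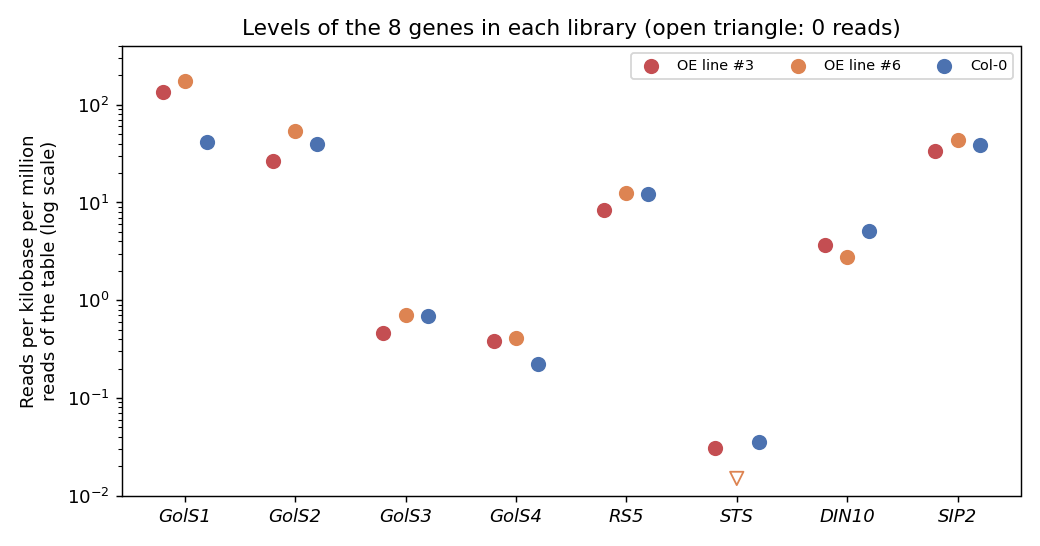
Level of each of the 8 genes in OE line #3, OE line #6 and Col-0, in RPKM, on a log axis. Each point is 1 library, and the open triangle marks *STS* with 0 reads in line #6. *AtGolS1* stands at 135 and 175 in the OE lines against 41.8 in Col-0, while the points of *SIP2* lie close together and those of *AtGolS2* spread around Col-0.

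*AtGolS3*, which is known for induction by cold, and *AtGolS4* were near the limit of detection. *AtGolS3* had 7 and 10 reads in lines #3 and #6, against 9 in Col-0, and a log2 fold change of -0.29 with an SE of 0.79 (adjusted p = 0.976, edgeR's quasi-likelihood test). *AtGolS4* had 6 reads in each of lines #3 and #6, against 3 in Col-0, and fell under the minimum for the test. The ratio of *AtGolS4* to Col-0 was 1.73 in line #3 with an interval of 0.368 to 10.7, so a difference of several fold was not detectable at this depth. Of the 6 further galactinol synthase genes of the family, *GolS5*, *GolS6*, *GolS7* and *GolS10* had 0 reads in every library. The limit that 0 reads allowed was 0.260 CPM in line #3, 0.278 CPM in line #6 and 0.301 CPM in Col-0, taken as 3 reads of the unscaled total. *GolS9* had 1 read in each library. *GolS8* had 47 and 56 reads in lines #3 and #6, against 45 in Col-0, with a log2 fold change of -0.01 (SE 0.33).

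The galactinol synthase reads of unstressed shoots came almost wholly from *AtGolS1* and *AtGolS2*. Per length, *AtGolS1* was 5.07 times *AtGolS2* in line #3 (4.57 to 5.64) and 3.27 times in line #6 (3.02 to 3.54), against 1.05 times in Col-0 (0.931 to 1.18). In Col-0 the 2 paralogs were thus level within counting error, and in both OE lines *AtGolS1* was the higher. *AtGolS1* made up 82.7% of the reads of *AtGolS1* to *AtGolS4* in line #3 (95% Wilson interval 81.2 to 84.1) and 75.7% in line #6 (74.2 to 77.1), against 49.9% in Col-0 (47.0 to 52.8). These shares do not depend on the scaling of libraries. The summed level of the 4 genes was 163 and 229.5 RPKM in lines #3 and #6, against 82.6 RPKM in Col-0, and without *AtGolS1* it was 27.5 and 54.7 RPKM against 40.8. The 4 genes together were therefore higher in both lines, and the other 3 without *AtGolS1* were lower in line #3 and higher in line #6 than in Col-0.

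**Figure D2:**
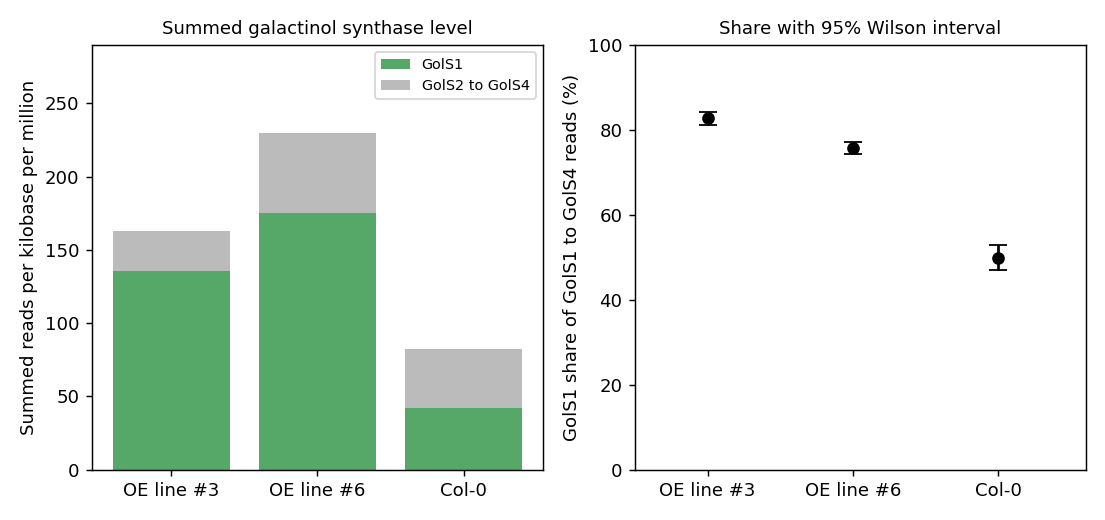
Left, summed level of *AtGolS1* to *AtGolS4* in RPKM in OE line #3, OE line #6 and Col-0, split into *AtGolS1* (green) and the other 3 genes (grey). Right, the share of *AtGolS1* in the reads of the 4 genes in percent, with its 95% Wilson interval for counting error. The share is 82.7% and 75.7% in the OE lines, against 49.9% in Col-0.

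The paralogs could be told apart in sequence. The coding sequence of *AtGolS1* was identical to those of *AtGolS2*, *AtGolS3* and *AtGolS4* at 72.8%, 74.2% and 73.3% of aligned bases, and *AtGolS2* and *AtGolS3* were the closest pair at 83.3%. No stretch of 50 bases in the transcripts was shared between any of the 8 genes, and 4 of the 1301 such stretches of *AtGolS4* recurred elsewhere in the genome. How reads that map to several places were counted is not given in the sources used here.

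*RS5*, which encodes the raffinose synthase known to make raffinose in stressed leaves, was not called, with line #3 below Col-0 and line #6 near it. It had 275 and 381 reads in lines #3 and #6, against 347 in Col-0, or 8.41 and 12.5 RPKM against 12.3. Line #3 was the low library, with a TMM-scaled ratio to Col-0 of 0.710 (0.604 to 0.834), while line #6 was within counting error of Col-0 at 0.923 (0.796 to 1.07). The mean was 29.0 ± 5.34 CPM (SD, n = 2) in the OE lines and 35.5 CPM in Col-0, and the log2 fold change was -0.29 (SE 0.20, adjusted p = 0.842 by edgeR's quasi-likelihood test). Per length *AtGolS1* was 16.1 times *RS5* in line #3 (14.2 to 18.3), with an interval of 12.6 to 15.6 in line #6, against 3.40 times in Col-0 (2.97 to 3.90).

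*STS*, which encodes a stachyose synthase that is known from seeds, had 1 read in line #3, 0 in line #6 and 1 in Col-0, and no comparison between genotypes could be made. The single reads correspond to 0.0305 RPKM in line #3 and 0.0354 RPKM in Col-0.

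*SIP2*, an alkaline alpha-galactosidase that hydrolyses raffinose, had similar levels in the 3 libraries. It had 1079 and 1295 reads in lines #3 and #6, against 1074 in Col-0, or 33.8 and 43.5 RPKM against 39.0. Its log2 fold change was -0.06 (SE 0.18, adjusted p = 0.979 by edgeR's quasi-likelihood test), with means of 105 ± 8.81 CPM (SD, n = 2) in the OE lines and 109.8 CPM in Col-0. On the TMM scale line #6 stood at 1.01 times Col-0 (0.934 to 1.10) and line #3 at 0.900 times (0.826 to 0.980), and the interval of line #3 reached 1 once ribosomal RNA and organelle genes were left out of the totals (0.873 to 1.04). On the scale of total reads the ratios were 0.867 (0.796 to 0.944) in line #3 and 1.11 (1.03 to 1.21) in line #6, on opposite sides of 1, so small differences of *SIP2* turned on the scaling.

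*DIN10*, a gene named for its induction in the dark and by sugar starvation, was below Col-0 in both lines and had the lowest log2 fold change of the 6 tested genes over both lines. It had 118 and 82 reads in lines #3 and #6, against 139 in Col-0, or 3.71 and 2.76 RPKM against 5.07. Line #6 was the lower, at TMM-scaled ratios of 0.761 (0.590 to 0.979) in line #3 and 0.496 (0.373 to 0.656) in line #6, and the interval of line #3 reached 1 without ribosomal RNA and organelle genes (0.624 to 1.03). The mean was 8.93 ± 2.66 CPM (SD, n = 2) in the OE lines and 14.2 CPM in Col-0. The log2 fold change of -0.67 (SE 0.26) had an unadjusted p of 0.0209 in edgeR's quasi-likelihood test and did not pass the threshold after adjustment (adjusted p = 0.546). None of the other 7 dark-inducible *DIN* genes measured was called, beside 0.229% of all tested genes called higher and 0.197% lower. Nothing is read from this count of 0. These 7 genes had a median log2 fold change of 0.08. Those of smallest p were *DIN2*, with 12 and 19 reads in lines #3 and #6 against 7 in Col-0, and *DIN11*, with 423 and 283 reads against 364.

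**Figure D3:**
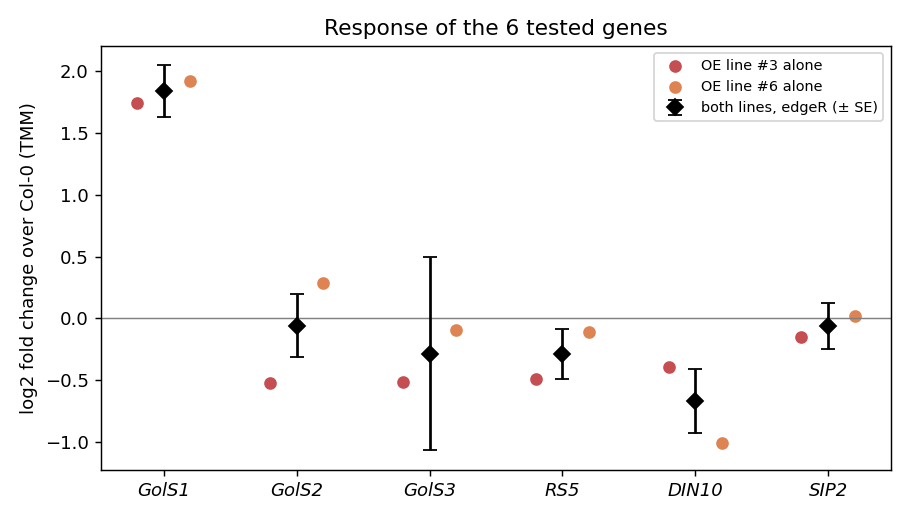
Log2 fold change over Col-0 of the 6 tested genes. Black diamonds with bars give the edgeR estimate over both lines and its SE, and coloured points give line #3 and line #6 alone, each against the same Col-0 library. *AtGolS1* is at 1.84, *AtGolS2* has line #3 below 0 and line #6 above it, and *DIN10* is at -0.67 with both lines below 0.

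The distance between *AtGolS1* and each other tested gene was measured directly as the difference of their log2 fold changes. It was 1.90 from *AtGolS2* (95% interval 1.19 to 2.61), 2.13 from *AtGolS3* (0.39 to 3.87), 2.13 from *RS5* (1.51 to 2.75), 2.51 from *DIN10* (1.80 to 3.23) and 1.90 from *SIP2* (SE 0.28). No difference had an interval that included 0, so *AtGolS1* stood apart from these 5 genes. *AtGolS4* and *STS* had too few reads for this comparison. The intervals treat the genes as independent. The spread between the 2 OE pools gave 1 degree of freedom, and the fit added 13.6 prior ones estimated over all tested genes.

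The order of the per-length levels changed between genotypes only near the top. In Col-0, *AtGolS1*, *AtGolS2* and *SIP2* were level at 41.8, 39.9 and 39.0 RPKM, with ratios between neighbours of 1.05 (0.931 to 1.18) and 1.02 (0.921 to 1.13). In line #3 *SIP2* followed *AtGolS1* and was 1.27 times *AtGolS2* (1.13 to 1.42), whereas in line #6 *AtGolS2* was 1.23 times *SIP2* (1.13 to 1.35). *RS5*, *DIN10* and *AtGolS3* came next in this order in every library, each beyond counting error from the one above it. *AtGolS3* and *AtGolS4* could not be ordered in any library, since the interval of their ratio included 1 in all 3.

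Between the OE lines, 4 of the 6 tested genes (*AtGolS1*, *AtGolS2*, *RS5* and *SIP2*) had a TMM-scaled ratio of line #6 to line #3 whose interval lay above 1, and 1 (*DIN10*) had it below 1. Of all tested genes 14.4% lay above and 12.2% below, and these intervals narrow as reads rise. The ratios were 1.13 for *AtGolS1* (1.07 to 1.20), 1.30 for *RS5* (1.11 to 1.52), 1.13 for *SIP2* (1.04 to 1.22) and 0.652 for *DIN10* (0.486 to 0.872). Without ribosomal RNA and organelle genes the interval of *SIP2* reached 1 (0.997 to 1.17). Those of *AtGolS1*, *AtGolS2*, *RS5* and *DIN10* still excluded 1. Against Col-0 on the TMM scale, 5 of the 6 had an interval that excluded 1 in line #3, *AtGolS1* above and *AtGolS2*, *RS5*, *DIN10* and *SIP2* below, where 30.6% of all tested genes did so in either direction. This fell to 3 of the 6 without ribosomal RNA and organelle genes, where *DIN10* and *SIP2* reached 1. In line #6 it was 3 of the 6, *AtGolS1* and *AtGolS2* above and *DIN10* below, where 24.8% did, and *SIP2* joined them on total reads. On the TMM scale both lines lay on the same side of Col-0 in 4 of the 6 (*AtGolS1*, *AtGolS3*, *RS5* and *DIN10*), as in 69.5% of all tested genes, and on total reads in 2 of the 6, since *AtGolS3* and *RS5* then stood at 1.03 and 1.01 times Col-0 in line #6. For *AtGolS1* the difference between the lines was small beside the difference of either line from Col-0.

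The promoters of the relatives held other elements. *AtGolS2* had a heat shock element of 2 units, GAANNTTC, a match that 20.1% of promoters had, and a dehydration-responsive element, ACCGAC, that was in 9.27%. *AtGolS3* held the GCCGAC form of the dehydration-responsive element, which is known as the binding site of the CBF cold factors and was in 5.40% of promoters, and *RS5* held ACCGAC. *AtGolS4* had the other heat shock element of 2 units, TTCNNGAA, which was in 16.9%. Both orders of 2 units are contained in the element of 3 units of *AtGolS1*, and all motifs were searched on both strands, so a site may read as the reverse complement. The windows are shown on the strand of each gene with the element in capitals, to be set beside that of *AtGolS1* above.
*AtGolS2* heat shock element of 2 units, chr1:21207343-21207366: ttcaaaacGAAGCTTCgcgcgcgt
*AtGolS2* dehydration-responsive element, chr1:21207433-21207454: gtttagtaGTCGGTcgtattta
*AtGolS3* dehydration-responsive element, chr1:3019415-3019436: aatagtagGTCGGCcatgggtc
*AtGolS4* heat shock element of 2 units, chr1:22280852-22280875: gtttaaaaTTCATGAActataaat
*RS5* dehydration-responsive element, chr5:16161289-16161310: attacattGTCGGTaggtcaat
The windows of *AtGolS2*, *AtGolS3* and *RS5* lie on the plus strand and that of *AtGolS4* on the minus strand of TAIR10.1. None of these 5 elements was in the windows of *STS*, *DIN10* or *SIP2*. The core of the abscisic acid response element, ACGTG, had 7 matches in *AtGolS2* and from 0 to 3 in the other 7 genes, and 38.6% of all promoters held at least 1. Many of these matches overlap one another, because the palindrome CACGTG and its neighbours match on both strands.

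Among the 13623 genes with a mean of at least 50 reads, those whose pair of log2 fold changes (line #3, line #6) lay nearest to that of *AtGolS1* were looked up as a description. The nearest was the cytosolic chaperone gene *HSP70* (AT3G12580), at a distance of 0.0924 on the log2 scale, with 12641 and 16696 reads in lines #3 and #6, against 3541 in Col-0. The next was *Hop3* (AT4G12400), whose product links HSP70 to HSP90, at 0.199, with 584 and 587 reads in lines #3 and #6, against 147 in Col-0. AT5G48570, an FKBP-type peptidyl-prolyl isomerase, was at 0.233 with 2012 and 2134 reads in the lines, against 553 in Col-0. The inositol polyphosphate 5-phosphatase gene *5PTASE11* (AT1G47510) was at 0.214 and had 65 and 93 reads in the lines, against 20 in Col-0. The transposable element gene AT4G04410 was the farthest of the 5 at 0.456. All but *5PTASE11* (adjusted p = 0.0618) were called higher by edgeR's quasi-likelihood test. Choosing genes by fold changes near those of *AtGolS1* largely fixed these calls, so nothing is read from them. The likeness rests on 2 ratios that share 1 Col-0 library and is a description.

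**Figure D4:**
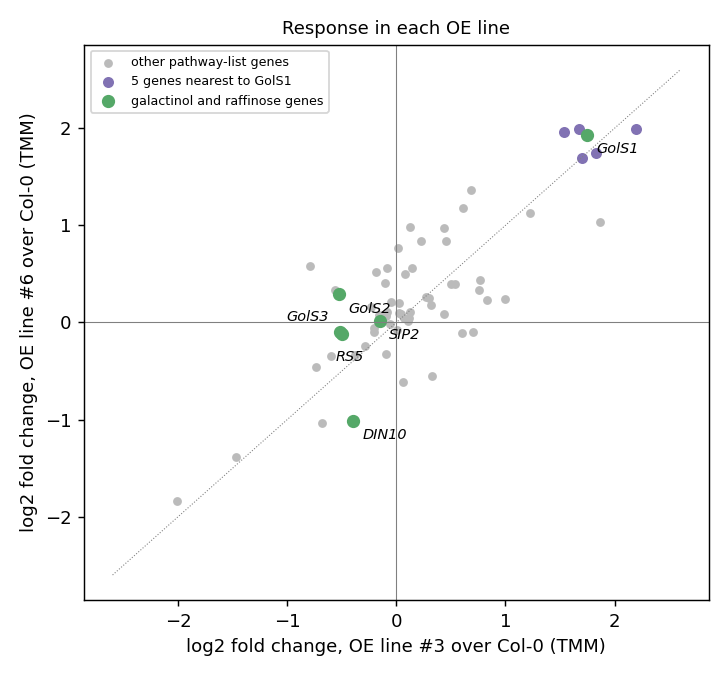
Log2 fold change over Col-0 in OE line #3 (x axis) and OE line #6 (y axis) after TMM scaling, 1 point per gene, with the dotted line at equal change. Green points are the 6 tested galactinol and raffinose genes, purple points the 5 genes nearest to *AtGolS1*, and grey points the other tested genes of the pathway lists. *AtGolS1* lies in the upper right with the purple points, and *AtGolS2* lies in the upper left, below 0 in line #3 and above 0 in line #6.

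The steps that supply or use the pathway were measured from lists of known genes. None of the 6 tested genes of *myo*-inositol synthesis was called, with a median log2 fold change of 0.02 against 0.01 over all tested genes. The inositol phosphate synthase *MIPS2* had 2347 and 3333 reads in lines #3 and #6, against 1898 in Col-0 (0.37 on the log2 scale, SE 0.22), and the phosphatase *IMPL2* had 131 and 119 reads against 125. None of the 8 genes of UDP-galactose supply was called, and the smallest p values belonged to the UDP-glucose 4-epimerases *UGE2*, with 49 and 63 reads in lines #3 and #6 against 73 in Col-0, and *UGE1*, with 185 and 203 reads against 215. Over all tested genes 0.229% were called higher and 0.197% lower, so nothing is read from these counts of 0. Of the 4 *myo*-inositol oxygenases, which break inositol down, 2 were tested and neither was called. *MIOX2* had 8 and 9 reads in lines #3 and #6, against 20 in Col-0, and *MIOX1* had 9 and 25 reads against 14.

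No gene of sucrose metabolism and no acid alpha-galactosidase was called. With 0.229% of all tested genes called higher and 0.197% lower, nothing is read from these counts of 0. Of 11 tested genes of sucrose synthesis and cleavage, 0 passed the threshold, and the median log2 fold change was 0.45. In edgeR's quasi-likelihood test 3 had an unadjusted p under 0.05, all with higher values in the OE lines. Of the 18802 tested genes, 700 had such a p with higher values in the OE lines. The summed level of the 13 listed genes was 616 and 678 CPM in lines #3 and #6, against 641 CPM in Col-0, and the abundant sucrose phosphate synthase *SPSC* had 2446 and 2687 reads in the lines, against 2668 in Col-0 (-0.26 on the log2 scale, SE 0.19). The sucrose synthase *SUS1*, which cleaves sucrose, had 427 and 595 reads in lines #3 and #6, against 279 in Col-0 (0.66 on the log2 scale, SE 0.21, adjusted p = 0.329), and *SUS4* had 34 reads in each line, against 13 in Col-0 (1.18, SE 0.49, adjusted p = 0.585). Of all tested genes, 69.5% had both lines above Col-0 or both below it, and the share with both above was not counted. All 3 acid alpha-galactosidases were above Col-0 in both lines. None was called, and 2 had an unadjusted p under 0.05 in edgeR's quasi-likelihood test, both on the higher side. *AGAL1* had 466 and 719 reads in lines #3 and #6, against 309 in Col-0 (0.73 on the log2 scale, SE 0.22, adjusted p = 0.327), and *AGAL2* had 190 and 161 reads against 100 (0.61, SE 0.23, adjusted p = 0.537).

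Of the 10 listed heat, drought and cold regulators, 6 were tested and 1 was called, where 0.229% of all tested genes were called higher and 0.197% lower. The called gene was the heat stress factor gene *HSFA2*, a known activator of *AtGolS1* in *Arabidopsis*. It was lower in the OE lines, with 45 and 54 reads in lines #3 and #6, against 163 in Col-0, and its log2 fold change was -1.92 (SE 0.25, adjusted p = 0.00113 by edgeR's quasi-likelihood test). *HSFA2* and *AtGolS1* thus lay on opposite sides of Col-0 in both lines. The *Arabidopsis* gene *HSFA3* had 6 and 4 reads in lines #3 and #6, against 9 in Col-0, and the cold factors *CBF1*, *CBF2* and *CBF3* had at most 2 reads in any library. Of 10 cold and drought marker genes 10 were tested and none was called. Beside the shares of all tested genes given above, nothing is read from this count of 0. The smallest p values belonged to *COR6.6*, with 430 and 548 reads in lines #3 and #6 against 584 in Col-0, and *KIN1*, with 37 and 22 reads against 9. These 2 genes are closely related neighbours whose reads may be split between them.

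**Figure D5:**
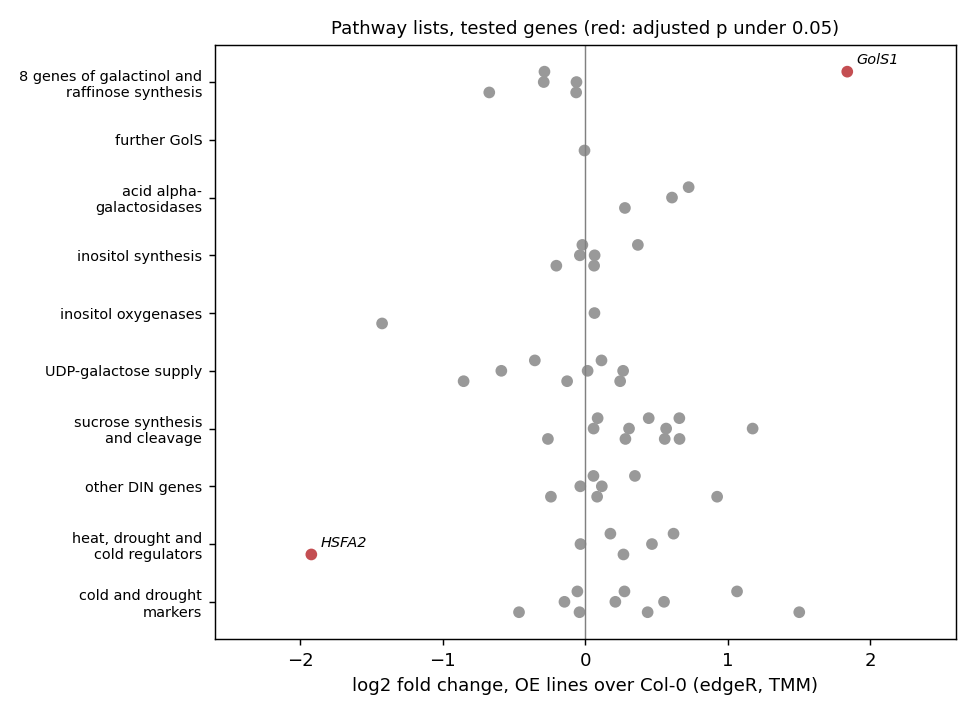
Log2 fold change over Col-0 (edgeR, both OE lines, TMM) of every tested gene in the 8 genes of the pathway and in the lists of supplying, using and regulating genes, 1 point per gene and spread vertically only for legibility. Red points passed an adjusted p of 0.05: *AtGolS1* at 1.84 and *HSFA2* at -1.92. All other points are grey.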

How the data were processed

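The authors mapped reads of 3 libraries (OE lines #3 and #6 and Col-0) to TAIR10, with CASAVA 1.7 named in the submitters' processing notes, and deposited the read count of each gene model. For the aligner and the counting rule, the sources used here give none. The deposited RPKM was not used, since part of its cells are not numbers, and RPKM was computed from the reads, the deposited lengths and the totals of 9968154 to 11556077 reads, which set the counting precision. The table also holds the authors' fold, log2 and q-value columns of their own comparisons, and other sheets list their called genes with categories. None was used.

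Both lines were compared with Col-0 in edgeR 4.0.16 (R 4.3.3; TMM, glmQLFit, glmQLFTest, prior count 0.125) on the 18802 genes that reached 10 reads in 1 library or more, with Benjamini-Hochberg adjustment. Residual degrees of freedom were 1 and prior ones 13.6, and the biological coefficient of variation was 0.127. Col-0 was assumed to vary like the lines. Since nothing ties the pools to separate growths, p-values measure only the spread between these samples. Each SE was obtained by dividing the log2 fold change, fitted with no prior count, by the root of F. The fit was tested on simulated data. These gave every gene and library the same dispersion, so they could not check the assumption about Col-0.

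Promoter windows, overlaps and identities came from RefSeq TAIR10.1, in which 32835 of 33602 loci had an entry. Named genes were the 8 members, overlapping genes, the 5 nearest to *AtGolS1*, and of each list those called or the 2 of smallest p. The further *GolS* genes, *SPSC*, *HSFA3*, *CBF1* to *CBF3*, *COR47*, *ERD10*, *RD29A*, *COR15A*, *GRP17*, *MS2* and the genes with the element of 3 units lie outside this rule and were chosen after their values were seen. Members and lists were chosen with earlier results of these data known. Alternatives were other scalings, filters, DESeq2 1.42.0, another quasi-likelihood form, and leaving out a line. One listed gene is not reported here.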

Additional observations from a re-analysis of the deposited data

How the results depend on the processing

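*AtGolS1* was called in all 8 alternative fits, with log2 fold changes of 1.84 to 1.89 and adjusted p of 1.69e-11 to 0.00373, and of the other tested members the lowest adjusted p was 0.531. Without one line it was 1.75 to 1.93, a value with no test, since 1 library against 1 leaves no residual degrees of freedom, and counts of called genes could not be had. The count of called genes, 80, fell to 42 (25 higher, 17 lower) with 10 reads asked of every library, to 41 (27 and 14) with at least 1 read in 1 library, and to 44 (30 and 14) with DESeq2. It was 103 (58 and 45) under total reads. A newer quasi-likelihood form (54 calls) was added after seeing the data, because the planned legacy form is the default of this edgeR version and so is the fit reported. The log2 fold change of *AtGolS2* reversed to 0.0065 under total reads. The ratio to Col-0 moved beyond its counting interval for *AtGolS1* in line #6 (3.80 under TMM) and for *SIP2* in line #6 (1.01 under TMM) and line #3 (0.951 without ribosomal RNA and organelle genes). The share of *AtGolS1* in line #3 was 81.2% when all 10 galactinol synthase genes were counted. The calls of every pathway list were within 1.5 times of those reported under each setting. The causes were not tested. No paired analysis was possible because the Col-0 group has 1 library and shares fewer than 2 numbers with the OE lines. Depth limits *AtGolS3*, *AtGolS4* and *STS*, at 10 reads or fewer in every library.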

Other observations

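The element of 3 units found before *AtGolS1* was looked for in all genes. Of the 253 genes with it in the promoter window, 177 were tested, 5 were called higher and 2 lower by edgeR's quasi-likelihood test, beside 0.229% and 0.197% of all tested genes, and the median log2 fold change of the 177 was 0.04. The genes called higher were *AtGolS1*, the small heat shock protein genes *HSP17.4* (AT3G46230) and AT1G53540, and the chaperone genes *HSP70* and *Hop3*, which were also the nearest 2 genes to *AtGolS1* in response. Those called lower were *HSFA2* and *DIP2* (AT5G03210). The group was formed after the values were seen and gets no test. Of the 5 genes nearest to *AtGolS1* in response, *5PTASE11*, AT5G48570 and AT4G04410 were not among the 253. Of all genes called higher, 11.6% held the element, with *AtGolS1*, the gene that prompted the search, among them. The windows of *HSP70*, *Hop3* and *HSFA2* are shown with the element in capitals, on the strand of each gene in TAIR10.1. In *HSP70* and *Hop3* the element begins 21 and 25 bases into the transcript.
*HSP70*, chr3:3993846-3993874, minus strand: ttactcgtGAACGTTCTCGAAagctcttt
*Hop3*, chr4:7341319-7341347, minus strand: aaaaattcGAAATTTCGAGAActctcttg
*HSFA2*, chr2:11135528-11135556, plus strand: ttagtaacGAAGTTTCTGGAAcattgtct
The element was present in genes called higher, in 2 genes called lower and in tested genes that were not called. Its part in the response was not tested.

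The excess of *AtGolS2* in line #6 over line #3 had a counterpart in part of the cold and drought markers, singled out after their values were seen. The dehydrin genes *COR47* and *ERD10* had 1083 and 1476 reads in line #3 and 1943 and 2567 in line #6, against 961 and 1503 in Col-0, and *RD29A* had 450 and 755 in lines #3 and #6, against 429 in Col-0. Line #6 over line #3 after TMM scaling was 1.68 for *COR47* (1.56 to 1.81), 1.63 for *ERD10* (1.53 to 1.74) and 1.57 for *RD29A* (1.40 to 1.77), beside 1.76 for *AtGolS2*. Of the 10 markers, 4 had an interval above 1 and 2 below 1, against 14.4% and 12.2% of all tested genes. *COR15A* and *KIN1* went the other way. *COR15A* had 74 and 43 reads in lines #3 and #6, a ratio of 0.545 (0.365 to 0.805). *KIN1* had 37 and 22 reads, a ratio of 0.558 (0.313 to 0.971). With 1 pool per line, a difference between lines has no replicate check.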
